A study of Mus musculus with 30 samples.

Results

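RNA recovered with an antibody to PTBP1 from the axoplasm of naive mouse sciatic nerve was compared with RNA recovered by the same antibody after preincubation with its blocking peptide. The comparison rests on 6 of the study's 30 libraries, chosen by their titles: 3 PTBP1 immunoprecipitates (PTBP1 IP) and 3 peptide-blocked immunoprecipitates (blocked IP). All 15041 transcripts of the deposited table of PTBP1 counts were taken, and 14540 of them passed a filter on low counts and were tested. Axoplasm here is the supernatant of ground nerve after centrifugation, which can also hold the contents of Schwann cells, fibroblasts and other cells of the nerve.

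Every sample pooled 10 nerves, and 3 independent repeats were made. The remaining groups used below were PTBP1 IP and blocked IP from nerve 7 days after a crush at mid-thigh (injured nerve), nucleolin IP and blocked nucleolin IP from naive nerve, and input RNA from naive nerve, each with 3 libraries. The labels give no strain, genotype, sex or age. The question the design puts is which axoplasmic RNAs are recovered with PTBP1 when the nerve is intact.

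PTBP1, the polypyrimidine tract binding protein, is an RNA-binding protein of the hnRNP family whose RNA recognition motifs bind single-stranded stretches rich in C and U. In the nucleus it represses the inclusion of alternative exons, and in the cytoplasm it takes part in the transport, stability and internal initiation of translation of some mRNAs. Neurons largely replace it with its paralogue PTBP2 as they mature, whereas Schwann cells and fibroblasts are not neurons and can express it.

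The 6 libraries held 15269871 to 22919174 counts over the listed transcripts. The share of listed transcripts with no count was 19.3%, 14.1% and 3.10% in the PTBP1 IP libraries and 23.4%, 30.4% and 15.8% in the blocked IP libraries, so that PTBP1 IP 3 and blocked IP 2 were the extremes and the groups overlapped (exact permutation test, two-sided p = 0.2, n = 3 each, where 0.1 is the smallest p possible). The 100 most abundant transcripts of each library took 54.3%, 44.8% and 35.2% of counts in PTBP1 IP and 39.0%, 28.0% and 33.8% in blocked IP (exact permutation p = 0.2). Across the 14540 transcripts, log2(CPM + 1) values (CPM is counts scaled to the effective library size) correlated at r = 0.748 between PTBP1 IP 1 and 2, 0.718 between 1 and 3 and 0.847 between 2 and 3. PTBP1 IP 3 correlated most with blocked IP 3, at 0.912. These transcripts are not independent replicates, and each pair of libraries shares depth effects. Transcripts of myelin and Schwann cells, markers of the labelled tissue, summed to 52780, 31300 and 41840 CPM over 20 genes in PTBP1 IP and to 24520, 30680 and 35030 CPM in blocked IP, which overlapped.

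No single transcript passed the test of PTBP1 IP over blocked IP at an adjusted p of 0.05 (edgeR quasi-likelihood test, Benjamini-Hochberg adjustment over 14540 transcripts, 0 called in either direction, 0.0%), and the smallest adjusted p was 0.222. At an unadjusted p under 0.05, 1673 transcripts were higher in PTBP1 IP (11.5% of those tested) and 220 were lower (1.51%). Every PTBP1 IP library lay above every blocked IP library for 1347 transcripts (9.26%), and every PTBP1 IP library lay below every blocked IP library for 681 (4.68%). Either case was met by 13.9% of transcripts. With 1 of the 6 libraries left out, when fewer libraries have to be in order, the count above was 1913 to 2574 (highest without blocked IP 3) and the count below was 945 to 1695 (highest without PTBP1 IP 3). The median log2 fold change over all transcripts was 0.05, with quartiles of -0.88 and 1.63.

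Other tests on the same counts gave other numbers. DESeq2 called 1014 transcripts higher (6.97%) and 85 lower (0.585%), and limma-voom with sample quality weights called 139 higher (0.956%) and 4 lower (0.0275%). The authors' deposited table of 12 libraries lists 642 transcripts as higher (4.27%) and 11 as lower (0.0731%) at an FDR under 0.05, and the authors' deposited table of the 6 naive libraries lists 699 as higher (6.38%) and 12 as lower (0.11%). Of the 610 transcripts higher in the authors' deposited table that were tested here, 461 had groups that did not overlap and 316 had no count in any blocked IP library. The 3 lists of higher transcripts (the authors', DESeq2 and limma-voom) shared 117 transcripts. Because the main test made no call, the transcripts below are given by their values and by whether the groups overlapped, not as changes.

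PTBP1 IP libraries held relatively more of the mRNAs rich in short C and U motifs than blocked IP libraries did, whereas the quartiles ranked by the reverse complements of the same motifs differed little. The motifs counted were 4 hexamers of the kind PTBP1 binds. They were CTCTCT and its neighbour TTCTCT, together with TCTTTC and the related TCTTCT, searched on the transcript strand only, with each start position counted once, so that matches may overlap. Of 14251 transcripts with a reference sequence, 88.9% held at least 1 motif, with a median of 1.72 starts per kb. Among the top quartile of transcripts by motifs per kb, 13.6% had all PTBP1 IP libraries above all blocked IP libraries and 3.03% had them below. Among the bottom quartile, the shares were 6.51% above and 6.29% below. By the density of the reverse-complement hexamers, the richest quartile had 9.01% above and 4.94% below, and the poorest quartile 8.45% above and 5.64% below.

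The windows shown next are the 30 bases of each transcript with the most motif starts, in capitals where a motif lies, from the GENCODE M21 transcripts on GRCm38. They are the richest windows by construction and show what such a stretch looks like, in 4 abundant transcripts whose PTBP1 IP libraries all lay above the blocked IP libraries and in 6 of the 8 transcripts with the widest gaps. The sequences of Pcdhb18 and of 2610203C20Rik, the other two, are not shown.
Rhoa: ttgcttcttttcttttTCTTTCTTTCTTTC
Marcks: TCTTTCTTTCTTTCTTTCTTTCTTTCTTTC
Qk: TTCTCTCTCTCTCTCTCTCTCTCTCTCTCT
Frg1: CTCTCTCTCTCTCTCTCTCTCTCTCTCTCT
Agpat5: TTCTCTCTCTCTCTCTCTCTCTCTCTCTCT
Ube2e1: TTCTCTCTCTCTCTCTCTCTCTCTCTCTCT
Dph6: TTCTCTCTCTCTCTCTCTCTCTTTCTCTCT
Csrnp2: tccctggtctgtacctgaatTCTTTCTTTC
Gm26789: attcacttatctgtacatacataaTCTTTC
Chid1: ctttcctatcccatggttgttgaaTTCTCT

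The Rhoa window lies in the 3′ UTR at chr9:108337482-108337511 on the plus strand, the Marcks window in the 3′ UTR at chr10:37135557-37135586 on the minus strand and the Qk window in the 3′ UTR at chr17:10211563-10211592 on the minus strand. The Agpat5 window lies in the 3′ UTR at chr8:18883919-18883948 on the plus strand and the Frg1 window in the 3′ UTR at chr8:41397494-41397523 on the minus strand. The Csrnp2 window lies in the 3′ UTR at chr15:100481303-100481332 on the minus strand. In noncoding transcripts, all on the minus strand, lie the windows of Ube2e1 (chr14:18325226-18325255), Dph6 (chr2:114521440-114521469), Gm26789 (chr10:63295284-63295313) and Chid1 (chr7:141532350-141532379). Over whole transcripts the density was 17.3 motif starts per kb in Frg1, 5.01 in Rhoa, 4.75 in Qk, 4.45 in Agpat5 and 3.21 in Marcks, all above the median of 1.72. It was 11.9 in the Ube2e1 transcript and 10.8 in the Dph6 transcript, but 1.20 in Gm26789 and 0.887 in the Chid1 transcript, so a wide gap also occurred in transcripts with few motifs. Pcdhb18 had 3.17, and of the 12 widest gaps 8 of the 11 with a reference sequence were above the median. Several windows are simple CT repeats with the same letters, and none of the sources used here says how reads from repeats were assigned.

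The same order was seen library by library among the 6440 protein-coding transcripts of at least 10 CPM (mean of the 6 naive libraries). That mean includes the PTBP1 IP libraries, so some transcripts, such as Agpat5, entered the set through them alone. Values for this set, here and in the next paragraph, therefore depend in part on the PTBP1 IP values. The part of this choice in the motif order was not tested. The median log2(CPM + 1) of the 1610 motif-richest transcripts minus that of the 1610 poorest was 0.77, 0.51 and 0.16 in PTBP1 IP and -0.02, 0.08 and -0.07 in blocked IP. All 3 PTBP1 IP libraries lay above all 3 blocked IP libraries, with PTBP1 IP 3 nearest to them. In injured nerve, whose libraries are separate, the difference was 1.14, 0.96 and 0.29 in PTBP1 IP and 0.13, 0.09 and 0.01 in blocked IP, again without overlap and again smallest in PTBP1 IP 3. With the nucleolin antibody in naive nerve it was 0.06, 0.23 and 0.12 in the IP and -0.18, -0.05 and 0.02 in the blocked IP, also without overlap, and in naive input 0.04, 0.06 and 0.06. For the reverse complements the difference was 0.01, -0.15 and -0.12 in PTBP1 IP and -0.15, -0.33 and -0.02 in blocked IP of naive nerve, which overlapped. With nucleolin the reverse complements gave 0.33, 0.08 and 0.00 in the IP and -0.02, -0.08 and -0.06 in the blocked IP, without overlap.

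**Figure D1:**
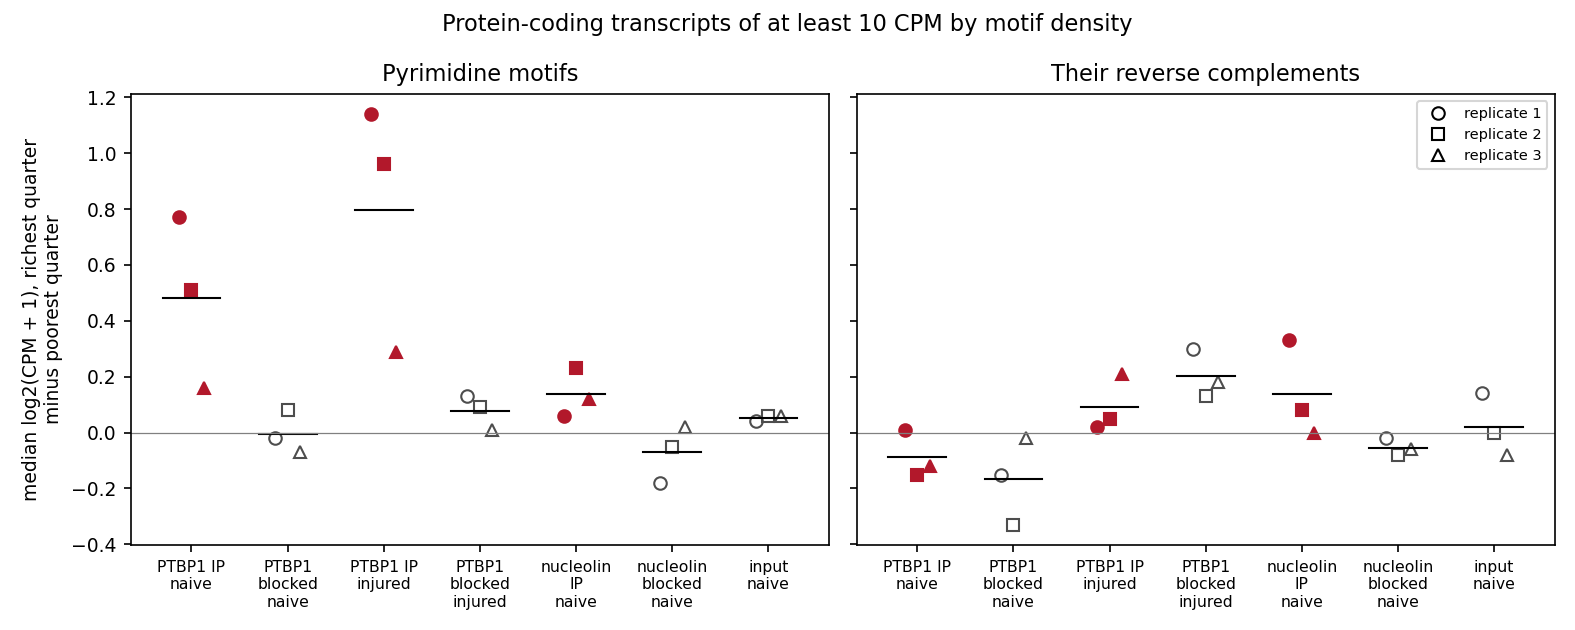
Difference between the median log2(CPM + 1) of the motif-richest and motif-poorest quartiles of protein-coding transcripts of at least 10 CPM, for each library (points, 3 per group) and as the group mean (bar). Left, the 4 pyrimidine hexamers; right, their reverse complements. On the left the naive PTBP1 IP libraries sit at 0.77, 0.51 and 0.16, above the blocked IP libraries at -0.02, 0.08 and -0.07.

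As a fitted log2 fold change, the motif-richest quartile had a median of 0.09 in naive nerve and the poorest -0.44. The shares of transcripts with PTBP1 IP above blocked IP were 10.6% in the richest quartile and 3.23% in the poorest, and the shares below were 4.66% and 8.26%. Across these 6440 transcripts, Spearman's rho between motif density and the naive log2 fold change was 0.17, against 0.02 for the reverse complements. The corresponding values for injured nerve were 0.27 and -0.04, and for nucleolin 0.09 and 0.08. Transcripts are not independent, and the correlations are weak and given as descriptions. Other features moved with the same fold change: rho was 0.22 with transcript length, 0.20 with 3′ UTR length and -0.05 with GC content. For nucleolin, rho was 0.29 with transcript length and 0.26 with 3′ UTR length. The share of C and T over the whole transcript ordered the quartiles much as the hexamers did, with median log2 fold changes of 0.05 in the richest quartile and -0.39 in the poorest. The part of composition and length in the motif order was not tested.

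Most abundant transcripts whose PTBP1 IP libraries lay above the blocked ones in naive nerve were also above in injured nerve. A mean of at least 200 CPM over the 6 naive libraries, a level chosen after the values were seen, was reached by 838 transcripts. That mean includes the PTBP1 IP libraries, so some transcripts reached it through them alone. Agpat5, for example, was at most 0.799 CPM in blocked IP and averaged 10.9 CPM in naive input. Shares given for the 838 therefore depend in part on the PTBP1 IP values. In 80 of the 838 (9.55%) every PTBP1 IP library lay above every blocked IP library. Of those 80, 55 (68.8%) also had all PTBP1 IP libraries above all blocked IP libraries in injured nerve, where 17.7% of the 838 did. The 55 were 37.2% of the 148 abundant transcripts that met the condition in injured nerve, and none of the 80 lay the opposite way there. Over all levels, 405 of 1347 transcripts (30.1%) were shared against a background of 16.6%, and for transcripts of 1 to 10 CPM 176 of 640 (27.5%) against 19.0%. Under 1 CPM the share of 28.1% (52 of 185) was no higher than the background of 29.1%. Naive and injured comparisons use separate IP and blocked IP libraries. The count of 55 was 37 when libraries were scaled by their totals alone and 44 with RLE size factors. Without PTBP1 IP 3 the count of 80 was 216, and it was 87 to 216 when each of the naive libraries was left out in turn.

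Gatm, the enzyme of the first step of creatine synthesis, was recovered at 25130, 13940 and 18890 CPM in PTBP1 IP against 1775, 2369 and 6343 CPM in blocked IP of naive nerve. Its lowest PTBP1 IP library was above its highest blocked library, and the log2 fold change was 2.47 ± 0.69 (SE; edgeR adjusted p = 0.222). In injured nerve Gatm had a log2 fold change of 4.00 without overlap, and with nucleolin -0.10 with overlap. Marcks, a membrane-bound substrate of protein kinase C that binds actin, was at 9924, 6749 and 4363 CPM in PTBP1 IP against 1106, 1520 and 1962 CPM in blocked IP. The groups did not overlap (log2 fold change 2.20 ± 0.59, edgeR adjusted p = 0.222), nor did they in injured nerve (3.29), and the nucleolin log2 fold change was -0.00.

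RNA-binding proteins were among these transcripts. Others, such as Hnrnpa2b1 (-1.01), Matr3 (-0.85) and Ddx6 (-0.63), were among the abundant transcripts with PTBP1 IP below blocked IP. Qk, a STAR-family regulator of splicing and mRNA localization in myelinating cells, was at 26360, 14990 and 3496 CPM in PTBP1 IP against 2339, 3085 and 2830 CPM in blocked IP. The groups did not overlap, but PTBP1 IP 3 lay close to the blocked libraries (log2 fold change 2.44; injured 2.38 without overlap). Khsrp, a KH-domain protein of mRNA decay and splicing, had 987, 588 and 189 CPM in PTBP1 IP against 77.2, 51.5 and 70.7 CPM in blocked IP. Son, a nuclear speckle protein needed for splicing, had 4636, 2537 and 521 CPM in PTBP1 IP against 29.3, 6.50 and 100 CPM in blocked IP. Both were without overlap, with log2 fold changes of 3.14 for Khsrp and 5.82 for Son, and both were without overlap in injured nerve as well, at 3.72 and 3.26. Nono, a paraspeckle protein, had a smaller log2 fold change of 1.28, with 470, 586 and 297 CPM in PTBP1 IP against 240, 154 and 162 CPM in blocked IP; with nucleolin its groups were apart in the opposite direction (-1.24).

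A transcription factor and membrane proteins were also among the abundant transcripts with PTBP1 IP above blocked IP. Sox9, a transcription factor of glial and mesenchymal lineages, was at 1253, 1356 and 449 CPM in PTBP1 IP against 31.8, 109 and 266 CPM in blocked IP. Its groups did not overlap in naive or in injured nerve. Itgb1, the integrin beta 1 subunit, varied little between its PTBP1 IP libraries, at 1162, 1146 and 1111 CPM, against 244, 452 and 575 CPM in blocked IP. Its log2 fold change was 1.43 ± 0.56 in naive nerve and 2.81 in injured nerve, and its groups overlapped with nucleolin. Nrp1, a receptor for semaphorin 3A and VEGF, had 996, 593 and 569 CPM in PTBP1 IP against 264, 193 and 364 CPM in blocked IP, and was without overlap in injured nerve and with nucleolin too.

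Of the 80 abundant transcripts, 79 had a positive log2 fold change in injured nerve. The lowest of the PTBP1 IP values was in PTBP1 IP 3 for 57 of the 80. With nucleolin 19 of the 80 (23.8%) had all IP libraries above all blocked libraries, against 9.92% of the abundant transcripts listed there. Among these 19 were the transcription factor Zbtb20, with log2 fold changes of 2.43 with PTBP1 and 3.68 with nucleolin, and the actin nucleator Fmn2, with 1.37 and 5.50. The 80 transcripts had a median of 3.01 motif starts per kb, against 1.99 for all 838 and 1.44 for the 65 abundant transcripts with PTBP1 IP below blocked IP. Their median density of reverse-complement hexamers was 2.19 per kb, against 2.26 and 2.00. Their median length was 4143 bases, against 3292 for all 838 and 1857 for those 65. Some of the 80 reached 200 CPM only through PTBP1 IP, so these medians are not independent of the comparison.

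**Figure D2:**
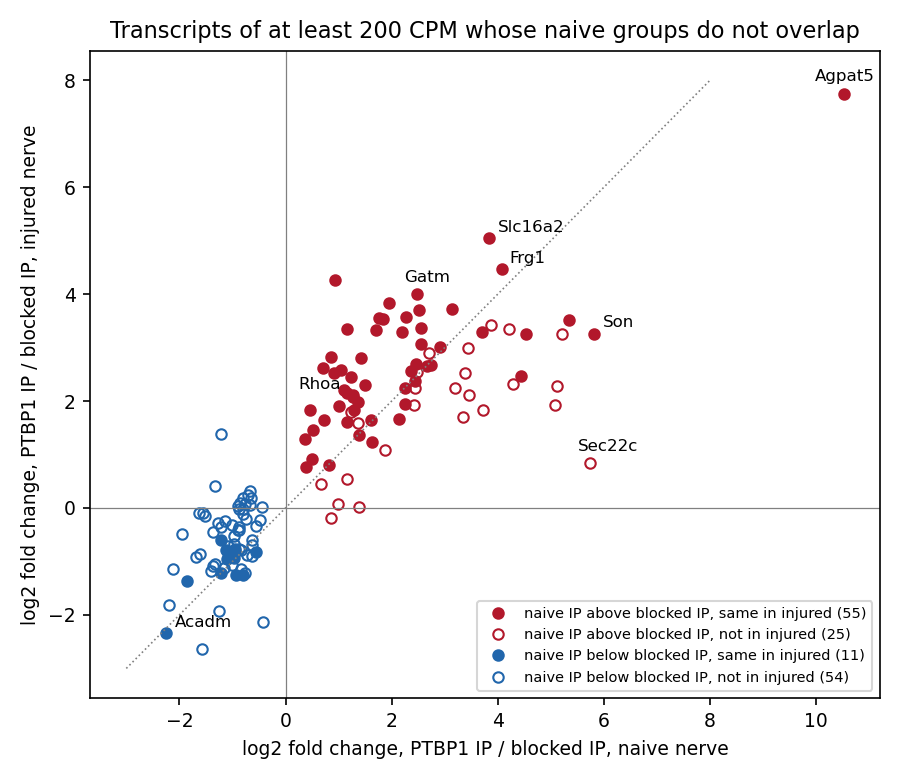
Fitted log2 fold change of PTBP1 IP over blocked IP in naive nerve (x axis) and in injured nerve (y axis) for the abundant transcripts (at least 200 CPM) whose naive libraries do not overlap. Red, the 80 with PTBP1 IP above; blue, the 65 with PTBP1 IP below; filled points do not overlap in the same direction in injured nerve (55 red, 11 blue). The dotted line marks equal values.

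Of the 65 abundant transcripts with all PTBP1 IP libraries below all blocked IP libraries (7.76%), 11 (16.9%) were also below in injured nerve, where 7.64% of the 838 were. Acadm, a mitochondrial enzyme of fatty acid oxidation, was at 40.2, 115 and 114 CPM in PTBP1 IP against 692, 365 and 221 CPM in blocked IP (log2 fold change -2.25; injured -2.34 without overlap). Atf4, a transcription factor of the integrated stress response, had 270, 253 and 300 CPM in PTBP1 IP against 756, 675 and 488 CPM in blocked IP, with log2 fold changes of -1.22 in naive and -1.21 in injured nerve. The most negative log2 fold change among the 65 was -2.25, whereas values among the 80 reached 10.52.

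Candidates known from work on axonal mRNAs in nerve injury had a median log2 fold change of 0.38 over 6 genes, and 1.28 without blocked IP 1, and 2 of the 6 (Rhoa and Ptbp1) lay above without overlap, as did 9.26% of all transcripts. Rhoa, a small GTPase that controls the actin cytoskeleton and growth cone collapse, was at 1481, 1186 and 1623 CPM in PTBP1 IP against 426, 432 and 660 CPM in blocked IP. Its lowest PTBP1 IP library was above its highest blocked library (log2 fold change 1.50 ± 0.51, edgeR adjusted p = 0.231). In injured nerve its log2 fold change was 2.30 without overlap, and with nucleolin -0.26 with overlap. Its mean in naive input was 814 CPM, a value between those of the groups, but input CPM came from a separate scaling.

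Kpnb1, which encodes importin beta 1, was at 204, 125 and 233 CPM in PTBP1 IP against 179, 151 and 272 CPM in blocked IP. The groups overlapped and the log2 fold change was -0.10 ± 0.54 (edgeR adjusted p = 0.981). Ncl, which encodes nucleolin, was at 465, 187 and 308 CPM in PTBP1 IP against 278, 415 and 237 CPM in blocked IP, also with overlap (0.04 ± 0.52). The kinase gene Mtor had 64.6, 72.3 and 26.1 CPM in PTBP1 IP against 74.0, 4.61 and 20.9 CPM in blocked IP, with overlap. The listed transcript of Stat3 was a retained-intron form with 0.00, 0.00 and 3.54 CPM in PTBP1 IP against 6.83, 0.00 and 0.280 CPM in blocked IP.

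Ptbp1 mRNA itself was rare. It had 1.21, 1.12 and 2.15 CPM in PTBP1 IP against 0.198, 0.889 and 0.639 CPM in blocked IP, 85 counts in PTBP1 IP against 36 in blocked IP, and the groups did not overlap (log2 fold change 1.37, edgeR adjusted p = 0.750). Ptbp2, the neuronal paralogue, was at 87.6, 172 and 66.3 CPM in PTBP1 IP against 89.8, 79.8 and 142 CPM in blocked IP. Ptbp3 was at 26.2, 40.5 and 38.4 CPM in PTBP1 IP against 46.7, 0.889 and 33.6 CPM in blocked IP. Both overlapped, and blocked IP 2 was the low library for Ptbp3.

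The most abundant transcripts of PTBP1 IP included Bgn, Cd47, Nid1, Malat1, Gatm, Fth1 and Qk. Bgn, which encodes the matrix proteoglycan biglycan, was at 106300, 46690 and 3357 CPM in PTBP1 IP against 7505, 3151 and 1021 CPM in blocked IP. The third PTBP1 IP library fell within the range of the blocked libraries. Bgn averaged 621 CPM in naive input, a value below all libraries of both groups, but input CPM came from a separate scaling. Nid1, the basement membrane protein nidogen 1, was at 53860, 27270 and 4697 CPM in PTBP1 IP against 4579, 2641 and 2164 CPM in blocked IP, so that PTBP1 IP 3 lay just above blocked IP 1. Cd47, a cell surface ligand that inhibits phagocytosis, had 58000, 27990 and 2469 CPM in PTBP1 IP against 10190, 4985 and 596 CPM in blocked IP, with overlap. With nucleolin the IP libraries of Bgn, Cd47 and Nid1 lay above its blocked libraries, at log2 fold changes of 4.08, 1.23 and 0.93. The nuclear long noncoding RNA Malat1 (33160, 17760 and 18460 CPM in PTBP1 IP against 23080, 15200 and 40100 CPM in blocked IP) and the ferritin heavy chain mRNA Fth1 (10690, 13390 and 31260 CPM in PTBP1 IP against 13520, 19480 and 38150 CPM in blocked IP) overlapped between groups.

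The widest gaps between the groups were in transcripts that were nearly absent from blocked IP. Of transcripts averaging at least 10 CPM in the higher group, 706 had all PTBP1 IP libraries above all blocked IP libraries and 487 had them below. Over all tested transcripts, 303 (2.08%) had counts in every PTBP1 IP library and none in any blocked IP library, and 2 (0.0138%) had the reverse. The reverse needs no count in PTBP1 IP 3, which lacked counts for only 3.10% of listed transcripts, against 15.8% to 30.4% in blocked IP. The condition for listing was also met by 3076 transcripts in naive PTBP1 IP only and by 1456 in naive blocked IP only. The part of detection in these 2 counts was not tested. The 12 widest gaps of each direction were chosen by the lowest library of the higher group over the highest library of the lower group, on the CPM + 1 scale.

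Agpat5, an acyltransferase of phospholipid synthesis (chr8:18846277-18891361, 8 exons), led with 1469, 541 and 36.2 CPM in PTBP1 IP against 0.495, 0.0556 and 0.799 CPM in blocked IP. Its naive input mean was 10.9 CPM, and its log2 fold change was 10.52 ± 1.96 (edgeR adjusted p = 0.222). In injured nerve it was at 78.6, 99.8 and 20.0 CPM in PTBP1 IP against 0, 1.00 and 0 CPM in blocked IP, so the groups were apart in both conditions, while with nucleolin they overlapped. Csrnp2, a transcriptional regulator (chr15), had 195, 209 and 24.8 CPM in PTBP1 IP against 0.693, 0.0556 and 0.559 CPM in blocked IP, and the log2 fold change in injured nerve was 2.69 without overlap. The complement regulator Susd4 was at 82.6, 61.1 and 15.2 CPM in PTBP1 IP against 0.347, 0 and 0.440 CPM in blocked IP, with overlap in injured nerve. The protocadherin Pcdhb18 had 24.0, 16.3 and 16.6 CPM in PTBP1 IP against 0, 0.0556 and 0.320 CPM in blocked IP, without overlap in injured nerve too.

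Of these 12 transcripts, 5 were retained-intron forms, 5 were protein coding and 2 were others. Ube2e1 (retained intron, 288, 73.1 and 14.1 CPM in PTBP1 IP) had no count in any blocked IP library and was at least 2018-fold higher in PTBP1 IP, taking 3 counts over the 3 blocked libraries as the floor. By the same floor the retained-intron forms of Dph6, Mfsd4a and Mtcp1 were at least 802-fold, 802-fold and 720-fold higher. The retained-intron form of Chid1 had 2997 counts in PTBP1 IP against 2 in blocked IP, a ratio of 1827 (95% exact interval 505 to 15090). The antisense transcript Gm26789 had 1442 counts in PTBP1 IP against 1 in blocked IP, a ratio of 1758 (315 to 69500), and Mdfic had 926 in PTBP1 IP against 1 in blocked IP, a ratio of 1129 (202 to 44650). These intervals and floors cover counting error only. 2610203C20Rik, which GENCODE M21 does not annotate, had 12.3, 12.9 and 17.1 CPM in PTBP1 IP against 0.0495, 0.0556 and 0 CPM in blocked IP.

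All 12 had a positive log2 fold change in injured nerve, and 5 of them (Agpat5, Csrnp2, Pcdhb18, 2610203C20Rik and Mdfic) were without overlap there. Over all transcripts, 16.6% lay above without overlap in injured nerve. PTBP1 IP 3 held the lowest of the PTBP1 IP values in 10 of the 12. When counts were summed over all listed transcripts of a gene, the log2 fold change stayed within 0.1 of the transcript's for 8 of the 12. The other 4 were Mdfic (-0.25 in place of 9.89), Ube2e1 (3.15 in place of 14.13), Mfsd4a (2.61 in place of 12.76) and Dph6 (6.99 in place of 12.63). For a gene with no other listed transcript the sum only repeats the transcript, so agreement there is no test. How many of the 8 had other listed transcripts was not counted.

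**Figure D3:**
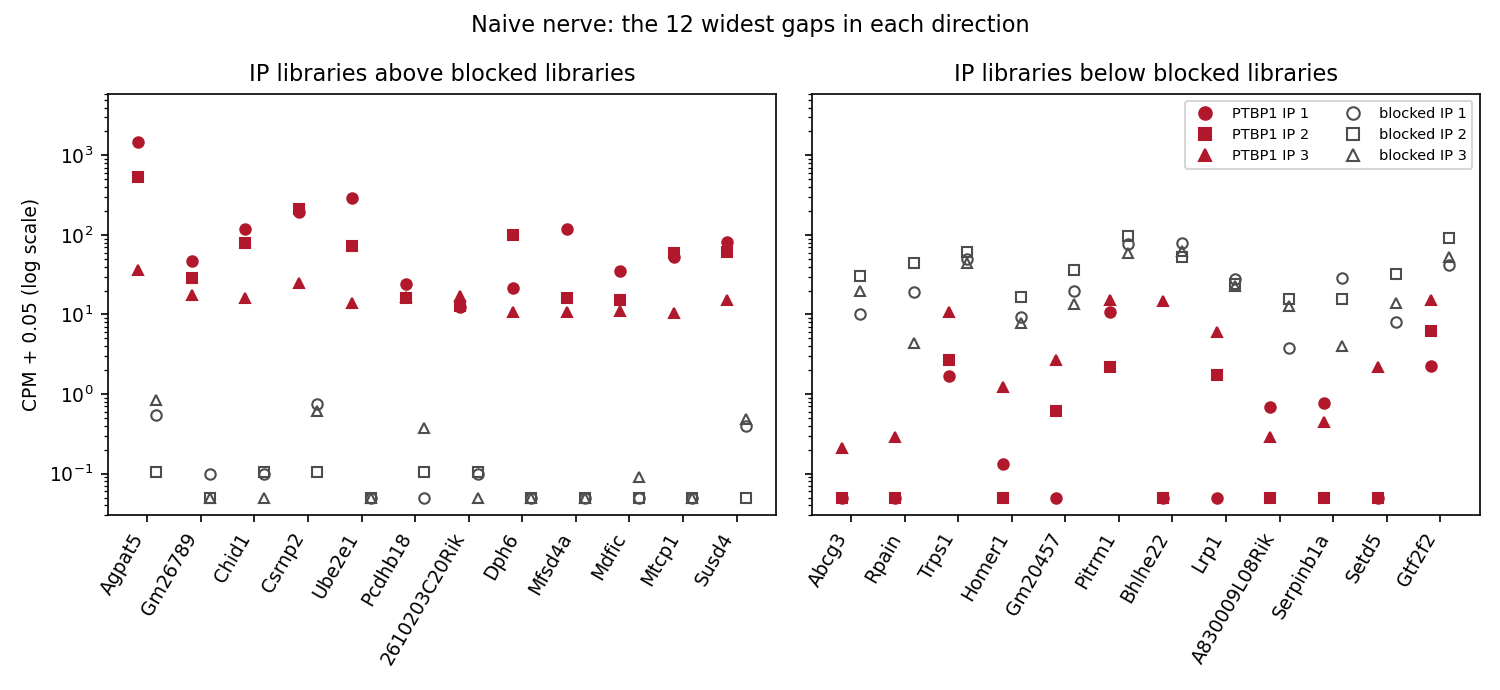
CPM + 0.05 on a log scale in the 3 PTBP1 IP libraries (red, left of each pair) and the 3 blocked IP libraries (open grey, right of each pair) for the 12 widest gaps in each direction. On the left all PTBP1 IP values lie above 10 CPM and all blocked IP values below 1 CPM; on the right PTBP1 IP 3 is often the PTBP1 IP value nearest to the blocked libraries.

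In the other direction the gaps were narrower. Abcg3, an ABC transporter gene, was at 0, 0 and 0.159 CPM in PTBP1 IP against 10.2, 30.5 and 19.9 CPM in blocked IP, and with nucleolin its IP libraries lay above the blocked ones (log2 fold change 4.21). Trps1, a zinc finger repressor, had 1.62, 2.65 and 10.6 CPM in PTBP1 IP against 50.5, 60.9 and 45.0 CPM in blocked IP. The mitochondrial protease Pitrm1 had 10.6, 2.17 and 15.0 CPM in PTBP1 IP against 77.1, 96.7 and 58.9 CPM in blocked IP. The general transcription factor subunit Gtf2f2 had 2.18, 6.22 and 15.4 CPM in PTBP1 IP against 41.7, 91.8 and 52.1 CPM in blocked IP, with a log2 fold change of -2.96 (edgeR adjusted p = 0.271). The other 8 were Rpain, Homer1, Gm20457, Bhlhe22, Lrp1, A830009L08Rik, Serpinb1a and Setd5, with fitted log2 fold changes from -7.91 (Rpain) to -3.29 (Lrp1, a retained-intron form). None of the 12 was below without overlap in injured nerve, where 6.31% of all transcripts were, and 6 had a negative log2 fold change there. With nucleolin, 4 of the 10 listed there lay apart in the opposite direction, above blocked IP, as did 11.0% of all transcripts tested with nucleolin. Summed over the gene, the log2 fold change of Trps1 was 0.24 in place of -3.39, and those of Homer1 (-1.16), Lrp1 (-1.07), Setd5 (-0.89) and Rpain (-2.48) were nearer to 0 than for the transcript.

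Retained-intron, processed and antisense transcripts lay above blocked IP without overlap in larger shares than protein-coding transcripts did. At a mean of at least 10 CPM, all PTBP1 IP libraries lay above all blocked IP libraries in 67 of 350 retained-intron transcripts (19.1%), 27 of 152 processed transcripts (17.8%) and 10 of 64 antisense transcripts (15.6%), against 391 of 6440 protein-coding transcripts (6.07%). They lay below in 3.14%, 3.29% and 3.12% of those classes, against 6.58% of protein-coding transcripts. Under 10 CPM the shares above were 15.0% of 1563 retained-intron transcripts and 9.38% of 3656 protein-coding transcripts. These levels are means over PTBP1 IP and blocked IP libraries, so a form rare elsewhere could reach 10 CPM through PTBP1 IP alone. The Ube2e1 form did so, with means of 3.09 CPM in naive input and 0 CPM in blocked IP. The shares above at 10 CPM or more are therefore raised in part by the choice of level. Median log2 fold changes at 10 CPM or more were 0.37 for retained introns and -0.21 for protein coding. The same classes stood out with nucleolin, where 27.8% of 281 retained-intron transcripts of at least 10 CPM lay above, with a median of 0.96, so this order was not seen with PTBP1 alone. The share of all counts in retained-intron transcripts was 2.22%, 1.58% and 0.961% in PTBP1 IP and 1.49%, 1.54% and 0.879% in blocked IP, which overlapped (exact permutation p = 0.4). Counts are per transcript, so reads of an intron shared with unspliced pre-mRNA may be assigned to such forms, and antisense transcripts cannot be told from their overlapping partners because none of the sources used here says whether strand was used.

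Gene lists were described by 1 transcript per gene, the one with the highest mean. Of 27 published PTBP1 targets measured, 6 had PTBP1 IP above blocked IP without overlap and 0 below (against 9.26% and 4.68% of all transcripts), with 0 past the adjusted threshold and a median log2 fold change of 0.25. At an unadjusted p under 0.05 (edgeR), 0 of the 27 were higher and 0 lower, where 11.5% and 1.51% of all transcripts were. The 6 without overlap, named after their values were seen, were Ptbp1, Actn1 (1.09), Xiap (2.80), Rtn4 (0.67), Vcl (2.48) and Mef2d (3.20), which include the focal adhesion proteins alpha-actinin 1 and vinculin and the apoptosis inhibitor XIAP. Abundant targets overlapped: Cdc42, a small GTPase, had 942, 857 and 1419 CPM in PTBP1 IP against 657, 1122 and 1569 CPM in blocked IP, and Nras and Atp5b had log2 fold changes of -0.16 and -1.42.

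The list of the PTB family and other hnRNP and splicing proteins split both ways. Of 43 measured, 8 lay above without overlap and 6 below (against 9.26% above and 4.68% below over all transcripts). The median was -0.13, and 0.10 without blocked IP 3. Above were Ptbp1, Qk, Khsrp, Nono, Hnrnpm (1.91), U2af2 (1.37), the stabilizer of AU-rich mRNAs Elavl1 (1.62) and a retained-intron form of Hnrnpl (5.30). Those below included Hnrnpa2b1 (-1.01), Matr3 (-0.85), Hnrnpc (-4.48), U2af1 (-1.43) and a retained-intron form of Hnrnpd (-4.91). Hnrnpa2b1, which binds and sorts mRNAs, had 238, 292 and 566 CPM in PTBP1 IP against 737, 578 and 892 CPM in blocked IP. The splicing regulator Mbnl1 overlapped, with a log2 fold change of -0.03.

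Nuclear-encoded subunits of the respiratory chain mostly had log2 fold changes below 0. Of 35 measured, 30 had a log2 fold change below 0, 13 lay below without overlap and 1 above (against 4.68% below and 9.26% above over all transcripts). At an unadjusted p under 0.05, 4 were below, where 1.51% of all transcripts were, and 0 passed the adjusted threshold (edgeR). The complex I subunit gene Ndufa1 was at 107, 97.2 and 233 CPM in PTBP1 IP against 1030, 366 and 293 CPM in blocked IP, and Ndufa4 at 229, 381 and 327 CPM in PTBP1 IP against 1501, 506 and 417 CPM in blocked IP. The complex IV gene Cox8a overlapped, at 358, 400 and 706 CPM in PTBP1 IP against 1225, 1005 and 551 CPM in blocked IP. The list's summed level was 2013, 3000 and 3509 CPM in PTBP1 IP and 10160, 5365 and 3714 CPM in blocked IP, highest in blocked IP 1. The median log2 fold change was -1.34 with all libraries, -0.45 without blocked IP 1 and -0.74 without PTBP1 IP 1. In injured nerve the median was -0.76. The shortest quartile of protein-coding transcripts of at least 10 CPM had a median of -0.62 in naive nerve, with 10.9% below and 3.66% above. The part of transcript length in this list was not tested.

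Blocked IP 1 also carried the most adipocyte RNA. All 10 adipocyte markers measured had negative log2 fold changes, with a median of -3.53, but 1 of the 10 lay below without overlap and 0 above (against 4.68% below and 9.26% above over all transcripts). Their summed level was 6803, 7777 and 5397 CPM in PTBP1 IP against 149000, 23510 and 4660 CPM in blocked IP, and no marker was at 0 in all libraries of either group. Cfd, the adipocyte complement factor adipsin, had 1934, 2860 and 1737 CPM in PTBP1 IP against 86810, 9403 and 1136 CPM in blocked IP. Without blocked IP 1 the median of the list was -1.17. The neuronal list had summed levels of 708, 401 and 898 CPM in PTBP1 IP and 3385, 715 and 791 CPM in blocked IP, with a median of -1.39 that was 0.70 without blocked IP 1 and -2.11 without PTBP1 IP 1. Blocked IP 1 thus differed from the other naive blocked libraries in fat, neuronal and mitochondrial transcripts, and the part of this library's cell content in those lists was not tested. In injured nerve, too, blocked IP 1 was the highest of the blocked libraries. There the blocked sums were 19540, 852 and 1055 CPM for adipocyte genes and 2369, 326 and 340 CPM for neuronal genes. For respiratory chain genes they were 2397, 1421 and 1722 CPM.

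Ribosomal protein mRNAs mostly had small negative log2 fold changes. Of 79 measured, 67 had a log2 fold change below 0, 10 lay below without overlap and 1 above (against 4.68% below and 9.26% above over all transcripts). In the shortest quartile of protein-coding transcripts of at least 10 CPM, 10.9% lay below and 3.66% above, with a median of -0.62. The part of length in these values was not tested. The median of the ribosomal protein mRNAs was -0.60, against -0.84 in injured nerve. It was -1.15 without PTBP1 IP 3, and -0.37, -0.38 and -0.39 without PTBP1 IP 1, PTBP1 IP 2 and blocked IP 1. Their summed level was 5732, 5726 and 14870 CPM in PTBP1 IP against 14120, 9248 and 15950 CPM in blocked IP, so that PTBP1 IP 3 lay within the range of the blocked libraries. Rpl4 had 493, 452 and 855 CPM in PTBP1 IP against 1249, 689 and 1128 CPM in blocked IP, and Rpl32 had 354, 376 and 1007 CPM in PTBP1 IP against 902, 538 and 1186 CPM in blocked IP. Translation factors had a median of -0.39, which was -0.07 without blocked IP 1. Of 30, 4 lay below without overlap and 0 above (against 4.68% below and 9.26% above over all transcripts). Among the 4 was the elongation factor gene Eef2 at 522, 577 and 889 CPM in PTBP1 IP against 1747, 1184 and 899 CPM in blocked IP.

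Axonal mRNAs known from sensory neurons had a median of -0.40, which was -0.15 without blocked IP 1, -0.24 without PTBP1 IP 1 or 2, -0.26 without blocked IP 3, -0.63 without blocked IP 2 and -0.94 without PTBP1 IP 3. Of 32, 3 lay above without overlap (Rhoa, Nrp1 and Calr) and 3 below (Tmsb4x, Tmsb10 and Atf4) (against 9.26% above and 4.68% below over all transcripts). Actb was at 2137, 2315 and 5048 CPM in PTBP1 IP against 1643, 2367 and 4404 CPM in blocked IP, and Vim and Eef1a1 had log2 fold changes of -0.64 and -0.38, all with overlap. Of 24 fibroblast and matrix genes, 4 lay above without overlap and 0 below (against 9.26% above and 4.68% below over all transcripts), namely Nid1, Thbs1 (2.26), Mfap5 (1.39) and Col1a1. The median of the list was -0.10, from -0.33 without PTBP1 IP 3 to 0.25 without blocked IP 3. Col1a1, a chain of type I collagen, was at 14300, 9699 and 6562 CPM in PTBP1 IP against 4375, 4323 and 4980 CPM in blocked IP, whereas Col1a2, the partner chain, was at 4020, 4269 and 8932 CPM in PTBP1 IP against 3717, 6189 and 9393 CPM in blocked IP, with overlap. In injured nerve Col1a1 was without overlap at 3.35 and Col1a2 overlapped at 0.65.

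Myelin and Schwann cell genes had a median of -0.15 with 0 of 20 apart in either direction (against 9.26% above and 4.68% below over all transcripts). Drp2, a dystrophin-related protein of the Schwann cell membrane, was at 4365, 2482 and 634 CPM in PTBP1 IP against 574, 859 and 533 CPM in blocked IP, with overlap in naive nerve and none in injured nerve. All 7 skeletal muscle genes had a positive log2 fold change, with a median of 1.00 that was 0.38 without PTBP1 IP 2 and 2.08 without blocked IP 3. Their summed level was 219, 1374 and 824 CPM in PTBP1 IP against 297, 355 and 680 CPM in blocked IP, which overlapped, and Acta1 and Ckm overlapped too. The other lists, among them endothelial (-0.11), macrophage (0.15), red blood cell (-0.24), cholesterol synthesis (-0.25), cytoskeleton (-0.29), ion channel (0.20), immediate early (-0.14), circadian (-0.73), nuclear noncoding (-0.23) and ribosomal RNA read sink (-0.10) genes, had 0 members past the adjusted threshold, as no transcript passed it. Above and below without overlap lay 2 and 1 of 25 cholesterol synthesis genes and of 37 cytoskeleton genes. For 13 circadian genes the counts were 1 and 1. For 14 endothelial, 20 macrophage and 17 ion channel genes they were 1 and 0 each. For 14 immediate early genes they were 0 and 1. For 4 red blood cell, 14 nuclear noncoding and 4 read sink genes they were 0 and 0. Over all transcripts 9.26% lay above and 4.68% below. In bulk IP libraries, a lower level can come from fewer cells of a type in the lysate or from less RNA bound per cell, which cannot be told apart.

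**Figure D4:**
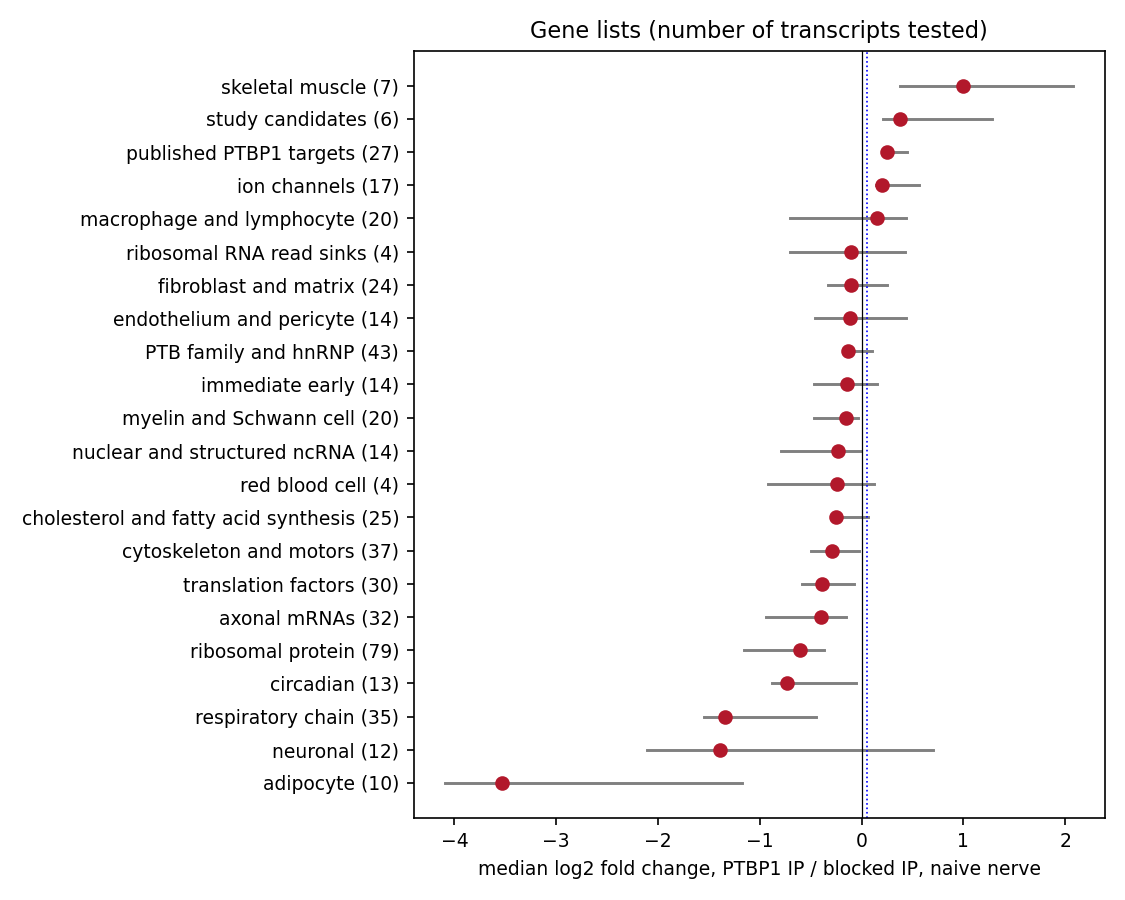
Median log2 fold change of PTBP1 IP over blocked IP in naive nerve for 22 gene lists (points, number of transcripts tested in brackets), with the range of medians when each of the 6 naive libraries is left out in turn (grey bars). The solid line marks 0 and the dotted line the median of all transcripts, 0.05. The adipocyte median is -3.53, and the neuronal bar runs across 0.

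Differences between conditions and between antibodies were tested directly. No transcript was called for the PTBP1 enrichment in injured nerve minus that in naive nerve (edgeR interaction, 0 of 14540 at adjusted p 0.05, 0.0%). At an unadjusted p under 0.05, 1147 transcripts (7.89%) differed, of which 562 were larger in injured nerve (3.87%) and 585 smaller (4.02%), and DESeq2 called 420. For the naive PTBP1 enrichment minus the naive nucleolin enrichment, 0 of 11680 transcripts listed for both antibodies were called (0.0%), with 749 (6.41%) at an unadjusted p under 0.05, of which 512 were larger for PTBP1 (4.38%) and 237 smaller (2.03%), and DESeq2 called 252. The separate comparisons of injured PTBP1 IP and of naive nucleolin IP with their blocked IP also had 0 calls by edgeR. At an unadjusted p under 0.05 they had 1566 higher (10.8%) and 249 lower (1.71%), 1815 in all (12.5%), for injured PTBP1, and 466 higher (3.99%) and 91 lower (0.779%), 557 in all (4.77%), for naive nucleolin. Groups did not overlap for 16.6% above and 6.31% below (22.9% in all) with injured PTBP1, and for 11.0% above and 5.93% below (16.9% in all) with naive nucleolin. The lack of calls does not show that the enrichments were alike.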

How the data were processed

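RNA of PTBP1 IP, nucleolin IP, their blocked IPs and input was sequenced from axoplasm. CASAVA 1.8.2, edgeR and the builds mm10 and GRCm38 are named in the submitters' processing notes. No source used here names the aligner, the counter, the annotation or the strand setting. The deposited values are raw counts for each transcript. The authors' table holds transcripts with at least 5 counts in all 3 libraries of at least 1 of its groups, as checked on the counts. That condition was met by 3076 transcripts in naive PTBP1 IP but not in naive blocked IP, and by 1456 the other way. The third blocked library has other letters in its column name, and all 6 naive libraries held identical counts in the authors' deposited table of naive nerve. The authors' deposited log2 fold changes and FDR (an adjusted p-value), per the file headers, served only for comparison. Another 169 columns of sample values were not used.

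Classes, coordinates and sequences came from GENCODE M21 on GRCm38, which held 14737 of the 15041 identifiers (98.0%). In R 4.3.3, edgeR 4.0.16 was fitted to the 12 PTBP1 libraries (TMM scaling, filterByExpr, a mean per group, quasi-likelihood test), and nucleolin contrasts to the 12 naive libraries of both antibodies. Input CPM came from a separate TMM scaling of the naive PTBP1 and input libraries on the transcripts listed for both. The fit was also run on simulated data, and the outcome is not reported here. DESeq2 1.42.0, limma 3.58.1, other scalings and filters, a replicate block, sums per gene and leaving out each library were alternatives. Python 3.11.15 counted motifs. Members, lists and tests were chosen with earlier results of these data known, and motif densities, 4 of the printed windows and the level of 200 CPM were chosen after the values were seen. Transcripts named were the 12 widest gaps in each direction, the 8 most abundant, the candidates and members of the lists; abundant transcripts were named after their values were seen. Some transcripts that this rule names are not reported here. P-values measure the spread between 3 pooled samples per group.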

Additional observations from a re-analysis of the deposited data

How the results depend on the processing

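The count of 0 transcripts for PTBP1 IP over blocked IP stayed at 0 by edgeR under each other scaling, filter and set of libraries tried, and was 1099 with DESeq2 and 143 with limma-voom. The injured minus naive difference had 420 calls with DESeq2, and the PTBP1 minus nucleolin difference 252 with DESeq2 and 0 to 1 when a library was left out (1 without PTBP1 IP 3 and 1 without blocked IP 3). The cause was not tested. Scaling by library totals moved the median of all log2 fold changes by -0.23. No label says whether same-numbered libraries were handled together. Deviations of same-numbered PTBP1 IP and blocked IP libraries correlated at 0.085, 0.047 and 0.194 across transcripts, each highest with its own number, which is a hint from the data, and pairing was not assumed. With the replicate block the count was 0.

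Leaving out 1 naive library gave 1913 to 2574 transcripts with PTBP1 IP above blocked IP, 945 to 1695 below, 87 to 216 abundant ones above, and a retained-intron share difference of -0.0323 to 0.597 percentage points (0.284 with all, negative without PTBP1 IP 1). Log2 fold changes near 0 crossed it, over -0.33 to 0.66 for Actb, -0.31 to 0.27 for Cdc42, -0.63 to 0.21 for Col1a2, -0.98 to 0.16 for Fth1, -0.29 to 0.18 for Kpnb1, -0.50 to 0.27 for Malat1, -0.14 to 0.20 for Mbnl1, -0.28 to 0.31 for Ncl, -0.29 to 0.16 for Nras, -0.44 to 0.36 for Ptbp2, -0.20 to 1.05 for Ptbp3 and -8.35 to 3.09 for Stat3. With library totals Ncl was -0.29 and Ptbp2 -0.23; Ncl was -0.19 with limma-voom and Mbnl1 0.03 with RLE size factors and with DESeq2. Summed per gene, Mdfic was -0.25 and Trps1 0.24. The difference between motif-rich and motif-poor quartiles, 0.53, was 0.36 to 0.71 under the alternatives fitted per transcript, and that of the reverse complements, 0.07, was -0.03 to 0.15. Neither was computed for sums per gene. These libraries, at 3 a group, limit the precision of single transcripts.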
